A study of Sus scrofa with 12 samples.

Results

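The genes described here are matrix proteases, plasminogen activators and their inhibitors, namely the matrix metalloproteinases MMP1 and MMP2, the plasminogen activators PLAU and PLAT, the urokinase receptor PLAUR, and the tissue inhibitors of metalloproteinases TIMP1, TIMP2 and TIMP3. They were taken by gene symbol from the annotation of the Affymetrix porcine genome array. Its unit of measurement is the probe set, several short probes against 1 transcript whose signals are combined. Of the 8 genes, 7 had a probe set carrying that symbol alone, with 10 probe sets between them among 23999 tested. PLAUR was not analysed here. Where a gene had several probe sets, the one with the highest mean level over the 12 arrays stood for it.

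RNA levels were compared between pig cells taken from tissue and the cells grown out of them, with 3 arrays in each of 4 groups. Mature adipocytes (MA) store the lipid of fat tissue, and dedifferentiated fat cells (DFAT) were grown from them in ceiling culture, in which buoyant fat cells settle on the upper wall of a flask. Granulosa cells (GC) surround the oocyte in the ovarian follicle, and DFOG cells were grown from them in vitro. DFAT and DFOG were both collected at semiconfluence. The labels name no breed, age, genotype or added agent, and they call the arrays biological replicates without saying which animals or cultures they came from, so p-values measure only the spread between these samples. Each comparison over culture set isolated cells against cultured ones, so dedifferentiation and other effects of culture cannot be told apart. The labels do not say how pure the isolated cells were, and in such bulk samples fewer cells of a type and less RNA per cell cannot be told apart.

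Matrix metalloproteinases are zinc-dependent enzymes that are secreted as inactive precursors and cut collagens and other matrix proteins. Urokinase and tissue plasminogen activator convert plasminogen to plasmin, a broad protease that degrades fibrin and can activate some metalloproteinase precursors. TIMPs bind active metalloproteinases and block them. In fat these enzymes take part in the remodelling of the matrix around adipocytes, and in the ovary they are known for the breakdown of the follicle wall at ovulation.

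Values are log2 levels on the scale of robust multi-array averaging (RMA), where a difference of 1 is a doubling. They are relative to the other RNA on an array, have no detection calls and are not compared between genes. The isolated cells carried most of the markers of their labels. By limma 8 of 9 measured adipocyte markers were higher in MA than in GC, against 20.7% of all probe sets. Of 11 granulosa markers, 8 were higher in GC, against 19.7%. CEBPA did not pass, at 6.80 in MA and 6.35 in GC. FOXL2, CYP19A1 and INHBA did not either, at 5.56, 4.95 and 7.97 in GC against 5.70, 5.03 and 7.90 in MA. The summed level of the 9 measured adipocyte markers, of 11 listed, was 16.08 to 16.18 in MA and 10.32 to 11.49 in DFAT, and all 9 fell. For the 11 granulosa markers it was 15.71 to 16.18 in GC and 10.31 to 10.38 in DFOG, where 8 fell and none rose. DFOG replicates 2 and 3 were nearly identical, with an SD of their differences over probe sets of 0.0742 against 0.310 to 0.621 for the other 11 pairs of arrays of a group. They were counted as 1 sample through their mean, which left n = 2 for DFOG and n = 3 for the other groups.

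In adipocyte culture 5 of the 7 measured genes rose and 1 fell. MMP1, MMP2, PLAU, PLAT and TIMP1 were higher in DFAT than in MA, TIMP3 was lower, and TIMP2 did not pass the test. In granulosa culture 6 of the 7 rose and none fell. These were the same 5 genes and TIMP2, while TIMP3 did not pass the test. Among all probe sets tested with limma, 15.7% rose and 16.4% fell in DFAT against MA, and 12.3% rose and 12.6% fell in DFOG against GC. That split depended on the scaling. With each array centred on its poly-A controls, which read bacterial RNAs that can be spiked into a sample, 6884 probe sets rose and 1340 fell in DFAT, and 1062 rose and 9355 fell in DFOG. The median log2 change of the 7 genes was 2.98 in adipocyte culture against -0.067 over all probe sets, and 2.55 in granulosa culture against -0.016.

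**Figure D1:**
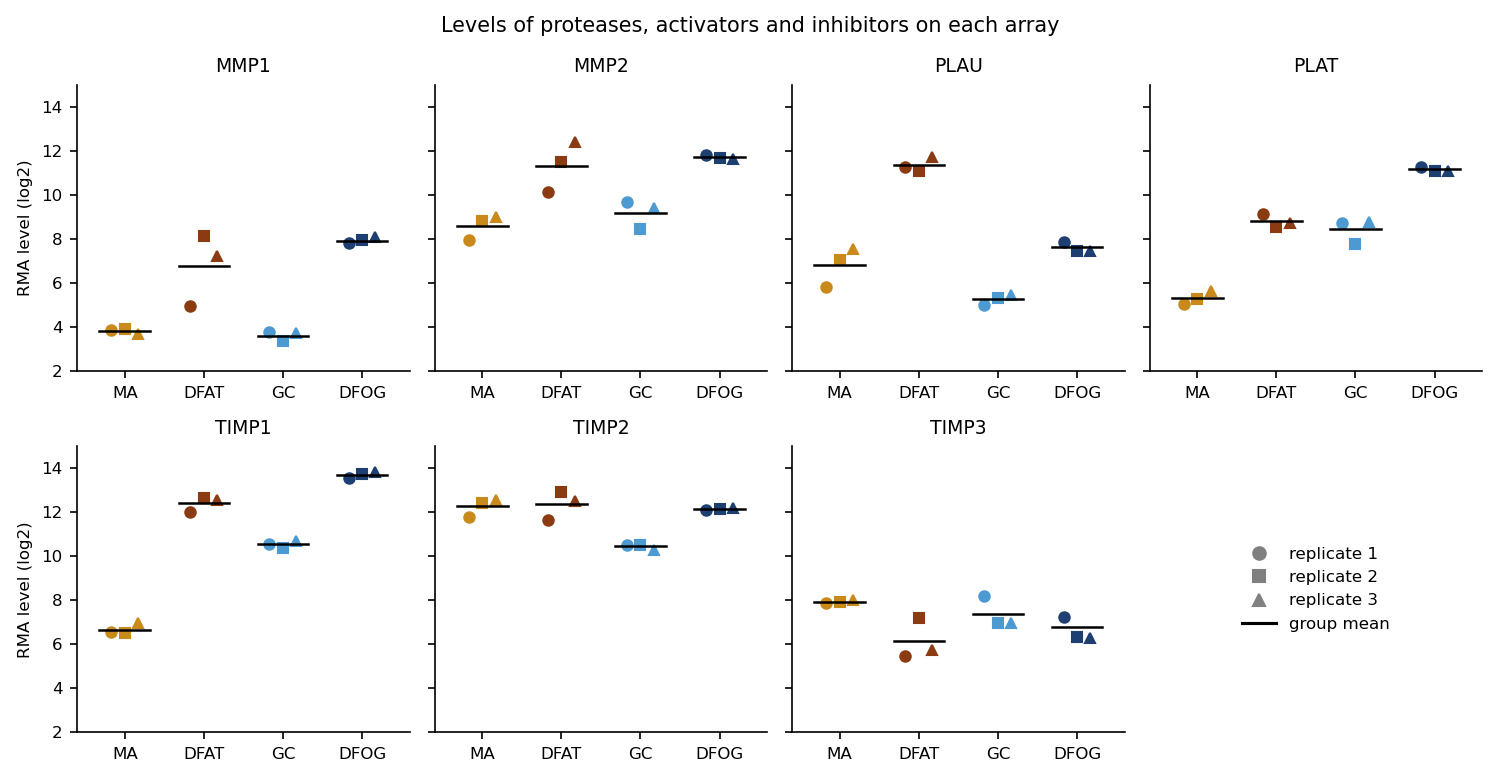
RMA level (log2) of each of the 7 measured genes on each of the 12 arrays, by group. Circles, squares and triangles are replicates 1, 2 and 3, and the bar is the group mean with DFOG replicates 2 and 3 entered as 1 sample. MMP1, MMP2, PLAU, PLAT and TIMP1 lay higher on every cultured array than on every array of their source cells.

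MMP1 encodes interstitial collagenase, which makes the first cut in fibrillar collagen. It read 3.84, 3.89 and 3.66 on the MA arrays and 4.95, 8.14 and 7.22 on the DFAT arrays. The GC arrays gave 3.75, 3.36 and 3.71, and the DFOG arrays 7.80, 7.95 and 8.06. Both isolated groups were low and overlapped one another, every cultured array was higher, and DFAT replicate 1 stood well below the other two DFAT arrays. MMP1 was near the bottom of the scale in isolated cells, where between 7.70% and 16.2% of the values on an array were lower. With no detection calls, that level is not shown to be above background, so the rises are given on the log2 scale without a fold and are understated if it is background. The rise from MA to DFAT was 2.98 ± 0.59 (SE; adjusted p = 0.00249 by limma). From GC to DFOG MMP1 rose by 4.29 ± 0.66 (adjusted p = 0.000651 by limma).

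The size of the MMP1 rise in adipocyte culture rested on single arrays, being 3.88 without DFAT replicate 1 and 2.29 without DFAT replicate 2. With an RNA integrity measure as a covariate, the level of the actin control at its 3′ end less that at its 5′ end, it was 2.84 and no longer passed (adjusted p = 0.0664 by limma). The 2 rises of MMP1 did not differ past the threshold, at -1.32 (95% interval -3.28 to 0.64, adjusted p = 0.348 by limma) for the change in adipocyte culture less that in granulosa culture. In the RefSeq annotation of Sscrofa11.1, MMP1 lies between MMP8 and MMP3. The MMP3 gene, which encodes stromelysin, had 4 probe sets, and none of them passed the test in either culture, with group means from 3.14 to 3.97.

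MMP2 encodes gelatinase A, which digests denatured collagen and the collagen of basement membranes. On the MA arrays MMP2 read 7.94, 8.81 and 9.01, and on the DFAT arrays 10.11, 11.47 and 12.38. It read 9.68, 8.43 and 9.40 in GC and 11.80, 11.65 and 11.64 in DFOG. MA overlapped GC and DFAT overlapped DFOG, but neither isolated group overlapped a cultured one. Replicate 1 was the lowest array of both MA and DFAT. The rise in adipocyte culture was 2.74 ± 0.52 on the log2 scale, or 6.66-fold (adjusted p = 0.00176 by limma), and 3.34 without DFAT replicate 1.

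In granulosa culture MMP2 rose by 2.55 ± 0.58, or 5.85-fold (adjusted p = 0.00746 by limma). The 2 changes of MMP2 differed by 0.19 (95% interval -1.52 to 1.90, adjusted p = 0.906 by limma). With the actin covariate MMP2 did not pass in either culture, at 2.07 in adipocyte culture (adjusted p = 0.104 by limma) and 2.05 in granulosa culture (adjusted p = 0.0924). Without DFOG replicate 1 the granulosa change was 2.47 (adjusted p = 0.0571 by limma). DFOG is then a single sample, here and wherever that replicate is left out, and is assumed to vary like the other groups. MMP14, the membrane-bound metalloproteinase that activates the MMP2 precursor, rose in DFAT by 1.19 ± 0.25 (adjusted p = 0.00312 by limma), a call lost with the actin covariate, where it was 0.74 (adjusted p = 0.198).

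PLAU encodes urokinase, the plasminogen activator that acts at the cell surface. It read 5.80, 7.05 and 7.52 on the MA arrays and 11.27, 11.09 and 11.69 on the DFAT arrays. GC gave 4.98, 5.32 and 5.44, and DFOG gave 7.83, 7.46 and 7.45. No GC array reached an MA array, the DFAT arrays were the highest of all by a wide margin, and the MA and DFOG ranges overlapped. PLAU rose by 4.56 ± 0.37 on the log2 scale in DFAT, or 23.6-fold (adjusted p = 3.33e-06 by limma), which ranked 148 of 23999 by size of rise. In DFOG it rose by 2.40 ± 0.41, or 5.28-fold (adjusted p = 0.00131 by limma). The rise in adipocyte culture was the larger by 2.16 ± 0.55 on the log2 scale (adjusted p = 0.0147 by limma for the difference between the 2 changes).

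PLAT encodes tissue plasminogen activator, best known for dissolving fibrin clots. Its levels were 5.06, 5.24 and 5.64 in MA and 9.14, 8.53 and 8.73 in DFAT. In GC they were 8.73, 7.78 and 8.77, and in DFOG 11.26, 11.09 and 11.09. The MA arrays were far below all others, the DFAT range overlapped that of GC, and the DFOG arrays were far above all others. PLAT rose by 3.49 ± 0.28 on the log2 scale in DFAT, or 11.2-fold (adjusted p = 3.05e-06 by limma). From GC to DFOG the rise was 2.75 ± 0.31, or 6.73-fold (adjusted p = 6.64e-05 by limma). The 2 rises of PLAT differed by 0.74 (95% interval -0.18 to 1.65, adjusted p = 0.253 by limma), and by 1.06 without GC replicate 2, the lowest GC array (adjusted p = 0.0455).

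TIMP1 encodes a secreted inhibitor of most metalloproteinases. It read 6.56, 6.49 and 6.95 in MA and 12.002, 12.646 and 12.532 in DFAT. The GC values were 10.54, 10.37 and 10.71, and the DFOG values 13.55, 13.74 and 13.83. The groups stood in the order MA, GC, DFAT and DFOG with no overlap between any of them. TIMP1 rose by 5.73 ± 0.20 on the log2 scale in DFAT, or 52.9-fold (adjusted p = 1.24e-08 by limma), which ranked 47 of 23999 by size of rise. In DFOG the rise was 3.13 ± 0.23, or 8.74-fold (adjusted p = 2.56e-06 by limma). Its rise was larger in adipocyte culture by 2.60 ± 0.31 on the log2 scale (adjusted p = 0.000122 by limma for that difference). In every alternative run the adjusted p of these 3 TIMP1 values was at most 0.00116.

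TIMP2 encodes an inhibitor that also takes part with MMP14 in activating the MMP2 precursor. Its levels were 11.80, 12.44 and 12.55 in MA and 11.65, 12.93 and 12.51 in DFAT. GC arrays read 10.520, 10.504 and 10.300, against 12.12, 12.16 and 12.18 for DFOG. GC was the low group, and MA, DFAT and DFOG overlapped. The change in adipocyte culture was 0.10 (95% interval -0.56 to 0.76, adjusted p = 0.843 by limma). In granulosa culture TIMP2 rose by 1.70 ± 0.33 on the log2 scale, or 3.25-fold (adjusted p = 0.00309 by limma). With poly-A centring that rise was 0.91 and no longer passed (adjusted p = 0.0889 by limma).

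The change of TIMP2 in adipocyte culture was below that in granulosa culture by 1.60 (log2 difference -1.60 ± 0.45, adjusted p = 0.0237 by limma). This call was lost without GC replicate 3, DFOG replicate 1, MA replicate 2 or MA replicate 3, at -1.63 to -1.46 with adjusted p from 0.0555 to 0.0683, and also with the mean over its probe sets, at -1.35 (adjusted p = 0.0727). Poly-A centring moved it most, to -0.18 (adjusted p = 0.788 by limma). The second TIMP2 probe set gave 0.15 in adipocyte culture (adjusted p = 0.813 by limma) and 1.25 in granulosa culture (adjusted p = 0.0504 by limma). Its difference between the cultures was -1.10 (adjusted p = 0.203 by limma), so it followed the direction of the first without passing the test.

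TIMP3 encodes the inhibitor that stays bound to the matrix. It read 7.86, 7.94 and 8.02 in MA and 5.48, 7.19 and 5.74 in DFAT. GC gave 8.21, 6.98 and 6.95, and DFOG gave 7.22, 6.32 and 6.30. All MA arrays lay above all DFAT arrays, while GC and DFOG overlapped, with replicate 1 the highest array in both. TIMP3 fell by 1.80 on the log2 scale in DFAT, to 0.287 of its MA level (SE 0.45, adjusted p = 0.0102 by limma). Its change in granulosa culture was -0.62 (95% interval -1.74 to 0.50, adjusted p = 0.464 by limma), and the 2 changes differed by -1.18 (adjusted p = 0.264).

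The fall of TIMP3 in DFAT was -3.05 with the actin covariate and -1.11 as the mean over its probe sets, both past the test. The second TIMP3 probe set read 7.73, 7.58 and 7.59 in MA and 5.93, 6.78 and 5.49 in DFAT. It fell by 1.56 on the log2 scale (adjusted p = 0.0215 by limma), and its change in granulosa culture was -0.18 (adjusted p = 0.871). The remaining one stayed between 3.56 and 3.86 on all 12 arrays, a level with 10.9% to 16.7% of the values on an array below it, and did not pass in either culture.

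**Figure D2:**
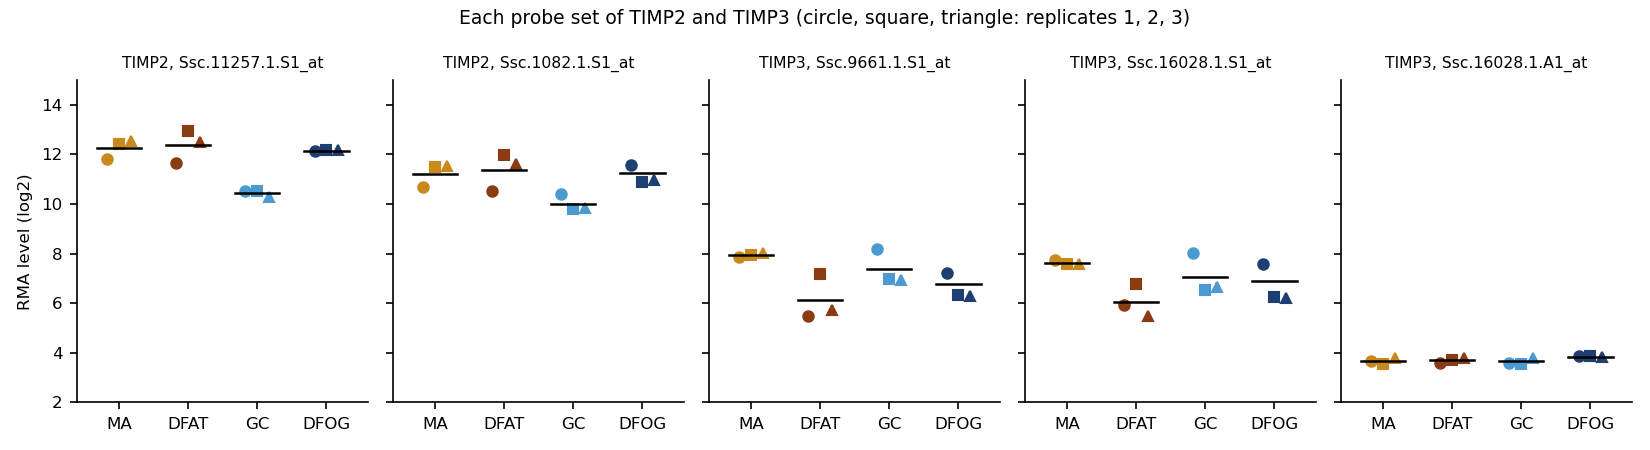
RMA level (log2) of the 2 TIMP2 and 3 TIMP3 probe sets on each array, by group, with circles, squares and triangles for replicates 1, 2 and 3 and bars for group means. GC is the low group in both TIMP2 panels, and 2 of the 3 TIMP3 panels show DFAT below MA while the last one stays between 3.56 and 3.86.

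**Figure D3:**
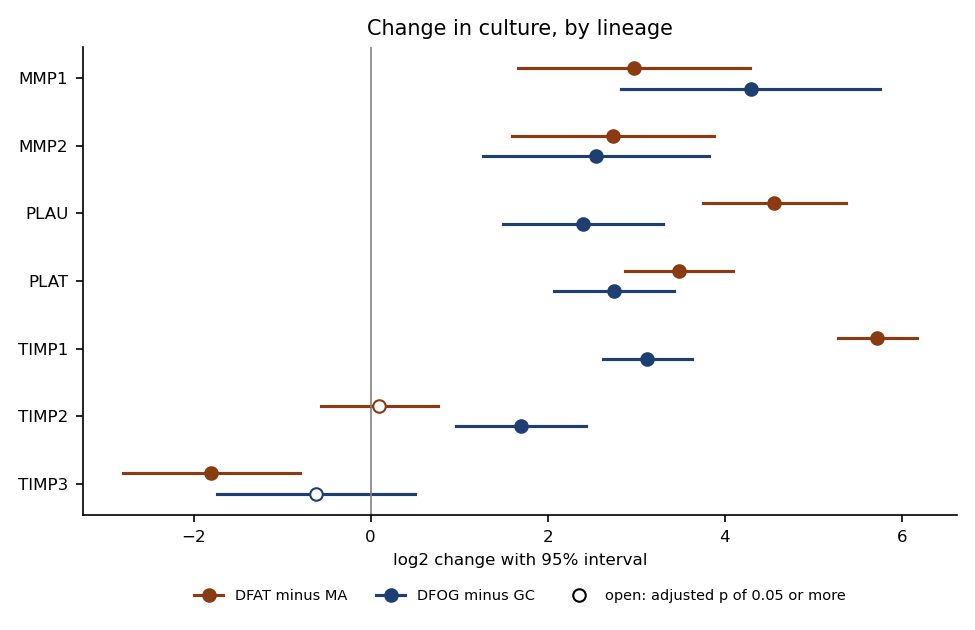
Log2 change of each gene in adipocyte culture (DFAT minus MA) and in granulosa culture (DFOG minus GC), with 95% intervals from limma. Filled points passed the test, and the intervals of PLAU, TIMP1 and TIMP2 do not overlap between the cultures.

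The comparison of the 2 cultures asked whether a gene moved by the same amount in both lineages. Of the 7 genes, 3 differed, against 23.3% of all probe sets. TIMP1 and PLAU rose more in adipocyte culture, and TIMP2 rose in granulosa culture with a change of 0.10 in adipocyte culture. The median difference of the 7 genes was 0.19, against -0.051 over all probe sets. For MMP1, MMP2, PLAT and TIMP3 the intervals of the difference included 0, with widths that do not show equal changes.

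Between the isolated cells, 2 of the 7 genes were higher in MA and 2 were higher in GC, where 20.7% of all probe sets were higher in MA and 19.7% were lower. TIMP1 was lower in MA by 3.87 ± 0.20 on the log2 scale, so that GC stood 14.7-fold higher (log2 difference MA minus GC -3.87, adjusted p = 8.14e-08 by limma). PLAT was also lower in MA, with GC 8.64-fold higher (log2 difference -3.11 ± 0.28, adjusted p = 4.66e-06 by limma). TIMP2 was higher in MA by 1.82 ± 0.30, or 3.53-fold (adjusted p = 0.000487 by limma), and PLAU by 1.54 ± 0.37, or 2.92-fold (adjusted p = 0.00555 by limma). The differences of MMP1, at 0.19 (adjusted p = 0.832), of MMP2, at -0.59 (adjusted p = 0.407), and of TIMP3, at 0.56 (adjusted p = 0.366), did not pass. Both calls of a higher level in MA were lost with poly-A centring, where TIMP2 differed by 0.47 (adjusted p = 0.272) and PLAU by 0.20 (adjusted p = 0.649).

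Between the cultured cells 1 of the 7 genes was higher in DFAT and 2 were lower, against 3.70% and 4.31% of all probe sets. PLAU was higher in DFAT by 3.71 ± 0.41, or 13.1-fold (adjusted p = 0.000152 by limma), which ranked 73 of 23999. PLAT was lower in DFAT, with DFOG 5.18-fold higher (log2 difference -2.37 ± 0.31, adjusted p = 0.000538 by limma). TIMP1 was lower as well, with DFOG 2.42-fold higher (log2 difference -1.27 ± 0.23, adjusted p = 0.00462 by limma). That TIMP1 call was lost with centring on the poly-A controls, at -1.199 (adjusted p = 0.0866).

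Seen as a gap between lineages, TIMP1 went from -3.87 between MA and GC to -1.27 between DFAT and DFOG, and TIMP2 from 1.82 to 0.22. PLAU went the other way, from 1.54 to 3.71. These 3 shifts are the same quantities as the differences between the 2 cultures tested above, and not further tests. The PLAT gap was -3.11 before culture and -2.37 after it, a shift that did not pass. Before and after culture alike, PLAU was higher in the fat lineage and PLAT in the granulosa lineage. With poly-A centring the PLAU difference before culture was 0.20 and did not pass (adjusted p = 0.649 by limma). The PLAT difference before culture still passed, at -4.46.

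**Figure D4:**
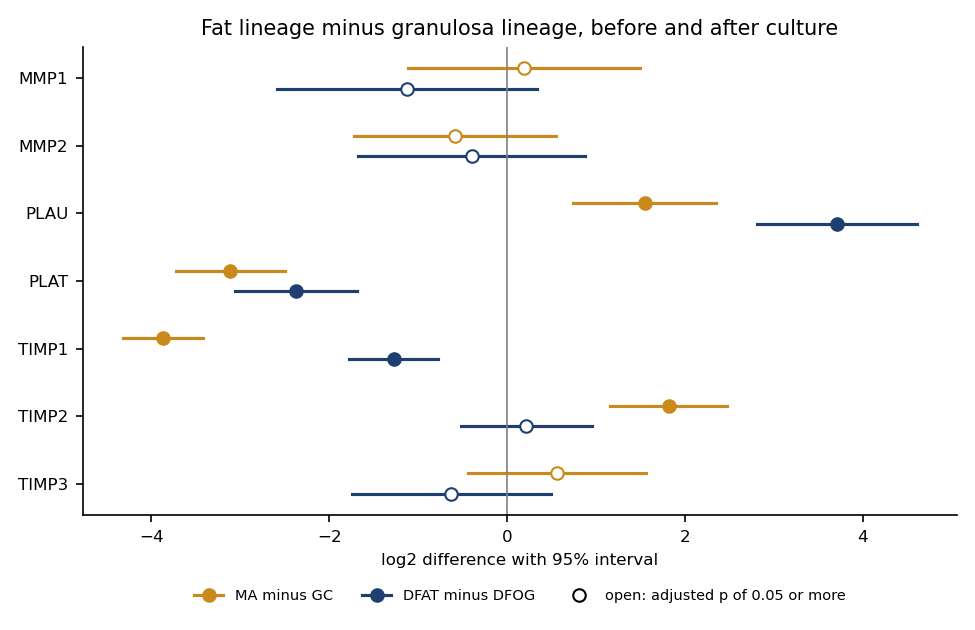
Log2 difference between the fat and granulosa lineages for each gene, before culture (MA minus GC) and after it (DFAT minus DFOG), with 95% intervals from limma and filled points past the test. PLAU moved away from 0, from 1.54 to 3.71, and TIMP1 moved toward it, from -3.87 to -1.27.

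Some of these values moved together with other measures of the arrays. The summed level of the 9 measured stromal fibroblast markers, of 11 listed, was 11.78 to 12.91 in MA, 14.36 to 14.52 in DFAT, 9.30 to 9.42 in GC and 12.91 to 13.07 in DFOG, so it was higher in both cultures. Of those 9 markers 5 rose and 2 fell in DFAT, the latter DPT at -2.38 and CD34 at -0.52, and 6 rose and none fell in DFOG. That of the 10 measured macrophage markers, of 15 listed, was 9.46 to 10.26 in MA, 8.33 to 8.76 in DFAT, 7.90 to 8.12 in GC and 8.20 to 8.39 in DFOG, and 6 of these markers fell in DFAT. The 11 measured endothelial markers, of 12 listed, summed to 10.001 to 10.589 in MA and 9.86 to 10.30 in DFAT. In GC they summed to 9.65 to 9.92 and in DFOG to 9.69 to 9.78. Of these 11 markers 4 fell in DFAT, PECAM1 at -1.65, CLDN5 at -1.55, CDH5 at -1.06 and ESAM at -0.70. ENG, the 1 that rose there, was at 1.99. In DFOG 2 rose, PECAM1 at 1.77 and EGFL7 at 0.53, and 1 fell, TIE1 at -2.47. The 5 theca markers include LHCGR and STAR, which granulosa cells also express. They summed to 11.52 to 12.30 in GC and 7.65 to 7.66 in DFOG. Of these 5, 2 fell and none rose in DFOG, LHCGR at -6.02 and INSL3 at -3.01. INSL3 read 9.59, 8.06 and 8.86 in GC, and STAR read 4.38, 5.39 and 4.56. For these marker counts the shares over all probe sets are those given above. MA replicate 1, the lowest MA array for MMP2, PLAU, PLAT, TIMP2 and TIMP3, also had the lowest stromal and macrophage sums in MA. The same array had the highest endothelial sum in MA, at 10.589, and the largest actin 3′ minus 5′ difference, at 2.475. The part of other cell types in the results was not tested.

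The actin control differed with the groups too. Its 3′ minus 5′ difference was 2.475, 1.668 and 1.503 in MA, 0.54, 0.33 and 0.97 in DFAT, 0.72, 1.76 and 1.56 in GC and 0.15, 0.60 and 0.64 in DFOG. It was larger on every MA array than on any DFAT array and on every GC array than on any DFOG array. A second actin control did not follow this, at 0.83, 0.28 and 0.16 in MA, 0.16, 1.197 and 0.87 in DFAT, -0.33, 0.58 and 0.23 in GC and -0.26, -0.17 and 0.14 in DFOG, with overlap in both lineages. The covariate was the first of them. For the members and the list genes chosen by size of change, calls lost with it are given beside the gene. No value with it is given for ANXA2, FOSL1, FOSL2, ETV5, ETS2 or the cell type markers. Nor is one given for the difference between the cultures of any list gene.

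The other genes of the plasminogen system include inhibitors, cell surface receptors and coagulation factors. Of 16 measured genes of 23 listed, 3 rose and 4 fell in DFAT, with a median change of -0.033, and 4 rose and 2 fell in DFOG, with a median of 0.11. With 16 genes the counts in DFAT are near the shares over all probe sets given above. The difference between the cultures passed for 8, with 6 lower and 2 higher in adipocyte culture, against 23.3% of all probe sets in either direction. That direction depended on the scaling, since with poly-A centring 16040 probe sets were higher in adipocyte culture and 721 lower. These 8 differences with that centring are not given here. SERPINE2, or protease nexin-1, which inhibits thrombin, urokinase and tissue plasminogen activator, read 5.07, 4.91 and 4.89 in MA and 11.37, 11.32 and 11.90 in DFAT. It read 13.45, 14.28 and 13.93 in GC and 11.79, 11.08 and 11.06 in DFOG. The cultured groups overlapped, and the isolated groups lay on opposite sides of them. SERPINE2 rose by 6.57 ± 0.26 in DFAT (adjusted p = 1.84e-08 by limma) and fell by 2.46 in DFOG (SE 0.29, adjusted p = 8.45e-05 by limma).

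S100A10, which with annexin A2 forms a plasminogen receptor at the cell surface, read 7.90, 7.76 and 7.67 in GC and 13.02, 12.08 and 12.21 in DFOG. Every DFOG array was far above the GC arrays, and S100A10 rose by 4.81 ± 0.28 (adjusted p = 4.6e-07 by limma). In DFAT it fell by 1.33 (SE 0.25, adjusted p = 0.00167 by limma). Its partner ANXA2, named after its values were seen, rose in DFOG by 2.13 ± 0.17 (adjusted p = 4.6e-06 by limma). In DFAT ANXA2 fell by 0.44 (SE 0.15, adjusted p = 0.0430 by limma), close to the threshold. That fall is small beside the move of the median of all probe sets there with poly-A centring, from -0.067 to 0.56. ANXA2 is not given with that centring. F3, tissue factor, which starts blood coagulation, rose in DFOG by 5.12 ± 0.35 (adjusted p = 1.67e-06 by limma). SERPINB2, plasminogen activator inhibitor 2, rose in DFOG by 3.37 ± 0.56 (adjusted p = 0.00104 by limma), and by 2.06 without DFOG replicate 1. In DFAT ENO1, a glycolytic enzyme that also binds plasminogen, rose by 1.64 ± 0.20, while VTN, vitronectin, fell by 1.47 and KLKB1, plasma prekallikrein, fell by 1.497. Both falls lost the call with the actin covariate, VTN at -1.28 (adjusted p = 0.0532 by limma) and KLKB1 at -1.07 (adjusted p = 0.0622). VTN lost it with poly-A centring too, at -0.83 (adjusted p = 0.0667 by limma). KLKB1 had a mean of 4.91 in MA and 3.41 in DFAT, the latter also not shown to be above background.

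Of 7 measured genes of 22 listed, counting TIMP4, MMP14 was the 1 that rose in DFAT, and none passed in DFOG by limma at the adjusted threshold. Their median changes were -0.16 and -0.037, and with 7 genes these counts are near the shares over all probe sets given above. Counts of ADAM and ADAMTS genes were also near those shares. Of 9 measured genes of 28 listed, 2 rose in DFAT, and 2 rose and 1 fell in DFOG. ADAMTS6 was called in both, at 1.05 ± 0.20 and 1.08 ± 0.22, and in DFOG was lost with poly-A centring, at 0.29 (adjusted p = 0.535). ADAM9, a membrane-anchored sheddase, rose in DFOG by 2.45 ± 0.44, and BMP1, which trims procollagen, fell there by 2.80. As means over their probe sets ADAM9 was 1.78 and BMP1 -1.61, both past the test. ADAM17, the sheddase of tumour necrosis factor, rose in DFAT by 1.18 ± 0.22 but did not pass as the mean over its probe sets, at 0.40 (adjusted p = 0.253), nor with the actin covariate, at 0.56 (adjusted p = 0.187).

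Among cathepsins, the proteases of lysosomes, and their cystatin inhibitors, the called changes were falls in adipocyte culture and rises in granulosa culture. Of 13 measured genes of 22 listed, 4 fell and none rose in DFAT, with a median change of -0.28. Over all probe sets 16.4% fell and 15.7% rose there. In DFOG 6 rose and none fell, against 12.3% and 12.6% of all probe sets, with a median of 0.48. The difference between the cultures passed the test for 5 of the 13, each lower in adipocyte culture, against 23.3% of all probe sets in either direction. As for the plasminogen genes, that direction depended on the scaling, and these 5 differences with poly-A centring are not given here. CTSC, which activates serine proteases of immune cells, fell by 1.13 in DFAT (SE 0.16, adjusted p = 0.000193 by limma) and rose by 2.69 ± 0.17 in DFOG (adjusted p = 1.07e-06 by limma). As the mean over its probe sets the rise in DFOG was 4.83. The other 3 that fell in DFAT were CSTB, an inhibitor, at -1.33, CTSZ at -1.29 and CTSS at -1.197, and CTSH and LGMN rose in DFOG by 2.01 and 1.83. With centring on the poly-A controls all 4 falls in DFAT lost the call, at -0.70 to -0.50 with adjusted p from 0.113 to 0.311. With the actin covariate CTSZ, at -1.0995 (adjusted p = 0.163), and CTSS, at -0.9987 (adjusted p = 0.309), lost it too. The CTSS call was lost as well without MA replicate 2, MA replicate 3, DFAT replicate 1 or DFAT replicate 3, with adjusted p from 0.0825 to 0.109. In DFOG poly-A centring took CST3 from 0.95 to 0.165, and it no longer passed (adjusted p = 0.705 by limma). CTSC, CTSH and LGMN kept the call there, at 1.90, 1.22 and 1.04. The other called rises in DFOG are not given with that centring. CTSS and CTSC are known to be abundant in macrophages, whose markers fell in DFAT as given above, and their part was not tested.

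Of 13 measured membrane and secreted protease regulators of 23 listed, 5 rose and 1 fell in DFAT, against 15.7% and 16.4% of all probe sets. In DFOG 7 rose and 1 fell, against 12.3% and 12.6%. In DFAT the secreted serine protease HTRA1 rose by 5.04 ± 0.26, the membrane aminopeptidase ANPEP by 3.48 ± 0.32 and the collagen chaperone SERPINH1 by 1.83 ± 0.20, while FAP, a membrane-bound serine protease of activated fibroblasts, fell by 1.59 and rose in DFOG by 2.26 ± 0.32. In DFOG PCOLCE2, an enhancer of procollagen processing, rose by 6.82 ± 0.26. The thrombospondins THBS2 and THBS1, matrix proteins that bind proteases and growth factors, rose there by 4.65 ± 0.47 and 4.27 ± 0.38. A2M, a broad protease trap, rose in DFOG by 2.61 ± 0.48. As means over their probe sets HTRA1 was 2.71, THBS1 5.19 and A2M 0.98, all past the test, and THBS2 was 5.34 without DFOG replicate 1.

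AP-1 and ETS factors are known to bind the promoters of MMP1 and PLAU. Of 9 measured genes of 23 listed, 3 rose and 3 fell in DFAT, against 15.7% and 16.4% of all probe sets. In DFOG 5 rose and 3 fell, against 12.3% and 12.6%. The AP-1 subunit FOS fell in both, at -5.07 in DFAT and -5.17 in DFOG, and its partner JUN fell too, at -2.91 and -2.44. ATF3, a stress-induced factor of the same family, fell as well, at -1.80 and -3.27. The ETS factor ERG rose by 1.26 ± 0.25 in DFAT and by 3.10 ± 0.27 in DFOG. FOSL1, another AP-1 subunit, rose in both, by 0.787 ± 0.166 and 0.997 ± 0.186, and the ETS factor ETV5 by 0.94 ± 0.20 and 2.21 ± 0.22. In DFOG FOSL2 rose by 0.81 ± 0.22 and the ETS factor ETS2 by 1.60 ± 0.25. FOSL1, FOSL2, ETV5 and ETS2 were chosen after their values were seen. They are not given with poly-A centring, which moved the median of all probe sets in DFOG minus GC from -0.016 to -0.81. The DFOG rise of FOSL2 is close in size to that move, and that of FOSL1 is little larger.

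**Figure D5:**
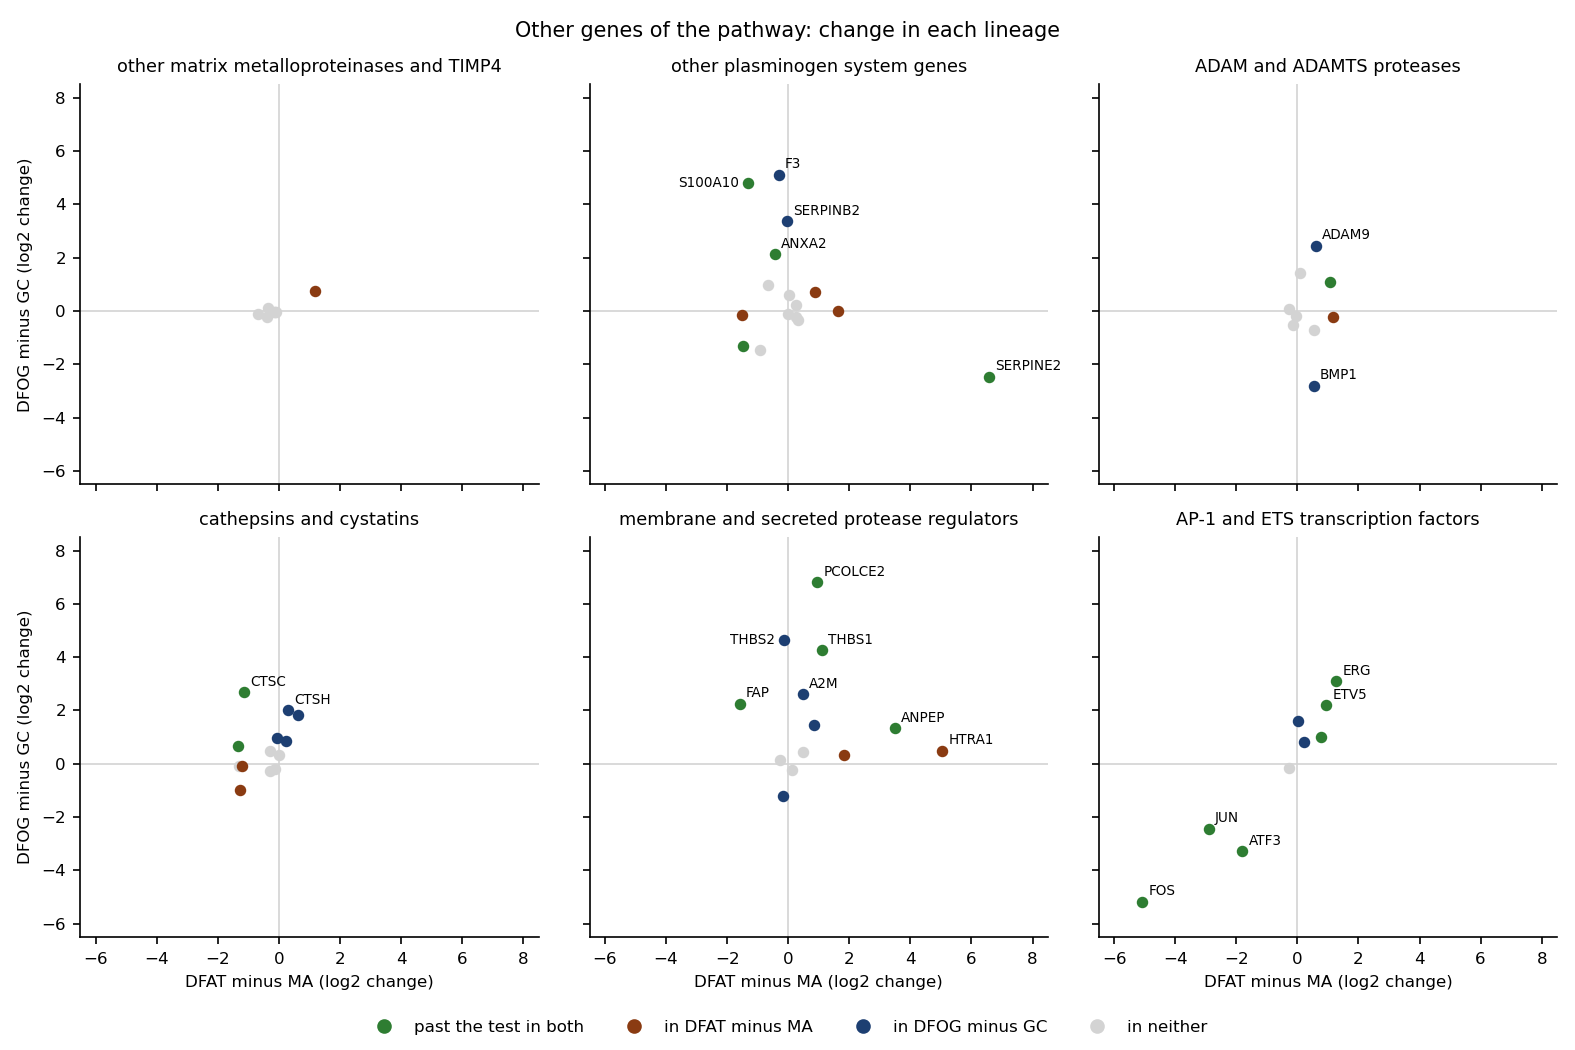
Log2 change in adipocyte culture (horizontal) against that in granulosa culture (vertical) for the measured genes of 6 lists, 1 point a gene, coloured by which of the limma tests it passed. SERPINE2 lies apart at 6.57 and -2.46, CTSC lies upper left at -1.13 and 2.69, and FOS, JUN and ATF3 lie lower left.

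The genes whose pattern was most like each member were found by Pearson correlation over the 11 samples among 6560 named genes. The samples fall into 4 groups, which these values mostly reflect, and no test was made. The kinase gene PKDCC was among the most like for both MMP1 (r = 0.96) and MMP2 (r = 0.96), beside the myosin genes MYL9 (r = 0.96) and MYH9 (r = 0.96) for MMP1. PLAU was most like the homeobox gene SIX4 (r = 0.98), WARS (r = 0.98) and ACSL5 (r = 0.97). PLAT was matched most closely by the adhesion gene NCAM1 (r = 0.98), with mean levels of 4.27 in MA, 7.90 in DFAT, 7.32 in GC and 10.67 in DFOG.

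TIMP1 was most like EPDR1 (r = 0.99), TAGLN2 (r = 0.99) and RAI14 (r = 0.98), and RAI14 had mean levels of 5.29 in MA, 12.19 in DFAT, 10.21 in GC and 12.51 in DFOG. TIMP2 was most like the tetraspanin gene CD151 (r = 0.98), with mean levels of 11.45 in MA, 11.71 in DFAT, 10.02 in GC and 11.54 in DFOG. The correlations were lowest for TIMP3, whose closest gene was C7H6orf106 (r = 0.93).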

How the data were processed

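Trizol extraction, column purification and labelling by amplification from the 3′ end are given in the labels' protocols. The deposited values are log2 levels that the authors made by RMA, per the submitters' processing notes. Its version and settings are not given in the sources used here. RMA sets all arrays to a common distribution, so changes are relative. The number of arrays limits the precision.

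Of 24123 probe sets, 124 Affymetrix controls were left out, leaving 23999. Names came from the platform annotation, which can be old. It gave 1 symbol to 10069 probe sets, several to 198 and none here to 13732, for 6765 genes, and updating symbols by gene ID changed 0. No sequences or coordinates are given.

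A mean per group was fitted over all 4 groups with limma 3.58.1 in R 4.3.3, with moderated two-sided tests, Benjamini-Hochberg adjustment over all 23999 probe sets and a threshold of 0.05. The script was tested on simulated data. DFOG replicates 2 and 3 entered as their mean, so 11 samples and 7 residual degrees of freedom remained. The 5 comparisons set each culture against its source cells, 1 such change against the other, and the lineages against each other before culture (MA minus GC) and after it (DFAT minus DFOG). Summed marker levels are log2 of the summed linear values.

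The members and lists were chosen with earlier results of these data known. Named genes are all members, up to 4 of each list with the largest called change in each culture, and the 3 most correlated genes of each member, of which the text gives some. A gene is represented by its probe set with the highest mean. In all, 21 alternatives were run: repeated quantile normalization, centring on the poly-A spike controls, a trended robust variance, leaving out the lowest 25% of probe sets, averaging a gene's probe sets, fitting only the groups compared, all 12 arrays as samples, the replicate number as a block, the actin 3′ minus 5′ difference as a covariate, and leaving out each array. Figures were drawn with Python 3.11.15, numpy 2.4.6, pandas 2.3.3 and matplotlib 3.10.9.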

Additional observations from a re-analysis of the deposited data

Results flagged for a closer look

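For 3 genes the change in adipocyte culture differed from that in granulosa culture by limma's test of the difference itself. TIMP1 rose in both cultures, and by 2.60 more on the log2 scale in adipocyte culture (adjusted p = 0.000122). PLAU also rose in both, and by 2.16 more in adipocyte culture (adjusted p = 0.0147). TIMP2 rose in granulosa culture and had a change near 0 in adipocyte culture, a difference of -1.60 (adjusted p = 0.0237). That TIMP2 difference did not pass with poly-A centring, at -0.18 (adjusted p = 0.788), with the mean over its probe sets, at -1.35 (adjusted p = 0.0727), or in 4 of the 12 runs that left out 1 array. Its granulosa rise was 0.91 (adjusted p = 0.0889) with poly-A centring.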

How the results depend on the processing

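Over the 21 alternatives (20 for the difference between the cultures), 4 to 6 genes passed in DFAT minus MA, 5 to 6 in DFOG minus GC, 2 to 4 for the difference, 3 to 4 in MA minus GC and 2 to 3 in DFAT minus DFOG. Centring on the poly-A controls moved the median of all probe sets to 0.56 in DFAT minus MA and to -0.81 in DFOG minus GC, from -0.067 and -0.016. With it the direction turned for the MMP1 difference between cultures (0.10), the TIMP3 difference between cultures (0.24), MMP1 in MA minus GC (-1.16) and TIMP3 in MA minus GC (-0.79), none of which was called before. TIMP2 lost its rise in DFOG minus GC (0.91, adjusted p = 0.0889 by limma) and its difference between the cultures (-0.18, adjusted p = 0.788), and calls appeared for TIMP3 in DFOG minus GC (-1.40), MMP2 in MA minus GC (-1.93) and the differences of PLAT (2.16) and MMP2 (1.61) between the cultures. The TIMP3 difference between the cultures was called without DFAT replicate 2 (-1.71, adjusted p = 0.0475 by limma). With the actin covariate the TIMP2 change in DFAT minus MA turned to -0.34, and leaving out 1 array gave -0.18 to 0.46. Leaving out 1 array gave -0.34 to 0.79 for the MMP2 difference between cultures, -0.93 to 0.21 for MMP2 in DFAT minus DFOG and -0.067 to 0.58 for TIMP2 in DFAT minus DFOG. The cause was not tested for any of these.

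Probe sets changed moved from 5971 in DFOG minus GC to 10417 with poly-A centring and 3586 without DFOG replicate 1, and from 5593 to 16761 for the difference between the cultures with poly-A centring. In MA minus GC the 9713 called, 4976 higher and 4737 lower, became 20211 with that centring, 1146 higher and 19065 lower. In DFAT minus DFOG 1921 became 1025 with only those groups in the fit and 1103 without DFOG replicate 1. Arrays of the same number correlated at 0.0999 to 0.168 between MA and DFAT and at 0.355 to 0.604 between GC and DFOG, the latter with DFOG replicates 2 and 3 nearly identical, and the labels name no shared animal or day, so the numbers were not taken to pair samples. With the replicate block 6, 6, 3, 4 and 3 genes passed in the 5 comparisons, as without it, and in DFAT minus DFOG 2947 probe sets did.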
